A study of Danio rerio with 30 samples.

Results

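Adult zebrafish (Danio rerio) retinas that had been pierced with a needle in fish kept in PLX3397 were compared with retinas that were neither injured nor treated. PLX3397, also called pexidartinib, blocks Csf1r, the receptor kinase for colony stimulating factor 1. The comparison uses 6 of the 30 RNA-seq libraries of the study, 3 of poked PLX3397 retinas and 3 of uninjured retinas, which were found in the count table by the library name given with each sample. The study also holds poked retinas in DMSO or in the caspase inhibitor ZVAD-fmk. Another experiment holds NMDA-injured and uninjured retinas of wild-type, csf1ra mutant and csf1rb mutant fish. All fish used here are wild type, and their counts are in the count table named RS14. The poke went through the back of the eye, the drug was given in the water, and the injured retinas were taken 2 days after the injury. Fish spent the night before in darkness, and polyadenylated RNA was sequenced. Injury and drug came together in the poked group and both are missing from the uninjured group, so their shares of any difference cannot be told apart in this contrast. The labels give neither the dose nor the vehicle of PLX3397. The 3 poked DMSO libraries stand beside the contrast as a second injured group and enter a direct test against PLX3397 where that is stated. Whether replicate libraries stem from different animals is not stated in the labels. The p-values hence measure only the spread between these libraries, which may be technical.

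After damage to the zebrafish retina, Müller glia can lower their glial genes, switch on reprogramming factors such as Ascl1a and Lin28a, re-enter the cell cycle and give rise to neuronal progenitors. Cytokines that signal through gp130 and Stat3, growth factors and Notch signalling are known to steer this response. Csf1r binds Csf1 and Il34 and is needed for the survival of microglia and many macrophages, and zebrafish carry a pair of receptor genes, csf1ra and csf1rb.

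The 6 libraries held 38933511 to 68463160 counts. On the first principal component of the 6 libraries, which held 58.7% of the variance, the groups stood apart, and the second, with 17.6%, set uninjured library 2 apart from the other 5. Library 2 of the uninjured group therefore gets separate values below where they matter. So do library 2 of the poked PLX3397 group and library 3 of the poked DMSO group, which stood apart in an earlier account of these data. In that DMSO library the median log2 difference of the microglia list from the uninjured mean was 2.99, against 0.62 and 0.84 in DMSO libraries 1 and 2. Library titles contain the letters MG, while the extraction notes describe whole retinas and name no cell sorting. Reads of an egfp reporter were present in all 6 libraries although the labels name no transgene, with 828, 1149 and 940 CPM in uninjured and 287, 440 and 360 CPM in poked PLX3397 libraries. Of the reads in uninjured libraries, the Müller glia list took 33183 to 54179 CPM (read counts scaled to a common library total), the cone list 18489 to 19650 CPM and the rod list 6932 to 8376 CPM, while lens genes summed to 25.9 to 29.9 CPM and lymphocyte genes to 9.67 to 16.1 CPM. Markers of retinal glia and photoreceptors were thus present, but these sums do not tell whole retina from material enriched in Müller glia. In such bulk samples, fewer cells of a type and less RNA per cell cannot be told apart.

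The contrast was wide. Of 21334 genes tested with edgeR, 4908 were higher (23.0%) and 4241 lower (19.9%) in poked PLX3397 retinas at an adjusted p under 0.05, and 50.3% had an unadjusted p under 0.05. A log2 fold change over 1 was found for 2660 of the higher genes, and one under -1 for 1933 of the lower genes. The median log2 fold change of all genes tested was 0.06. In 5899 genes (27.7%) all 3 poked libraries lay above all 3 uninjured ones, and in 5059 (23.7%) they all lay below. Counts of list members are read against these backgrounds.

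**Figure D1:**
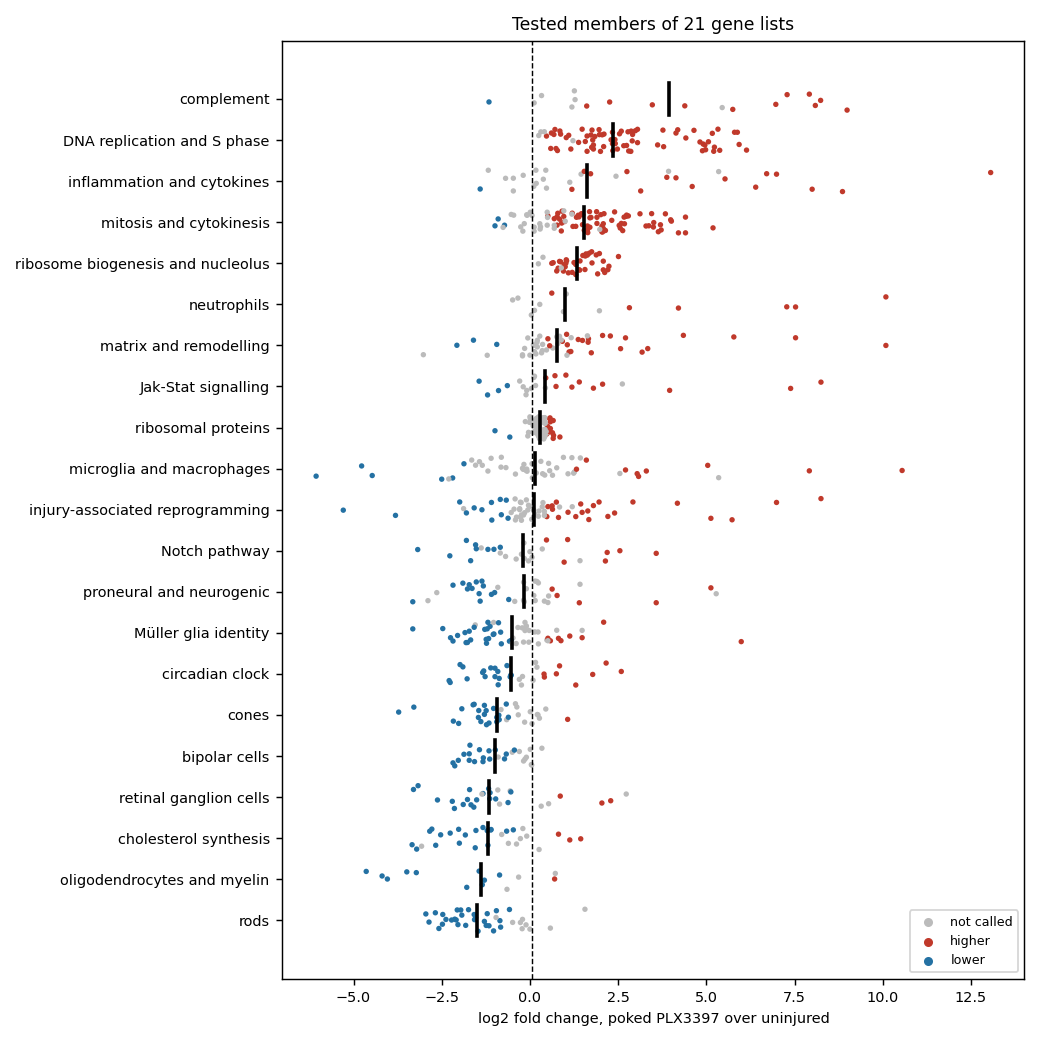
Log2 fold change of poked PLX3397 over uninjured retinas (x axis) for every tested member of 21 gene lists (rows); grey points are members that were not called, coloured points are members called by edgeR, black bars are list medians and the dashed line is the median of all genes, 0.06. Replication, complement and ribosome biogenesis lie to the right, and rods, oligodendrocytes, cholesterol synthesis and ganglion cells to the left.

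The receptors that PLX3397 targets were not called in the contrast, whereas one of their ligands rose. Of 5 genes listed for the receptors and ligands 4 were tested, 1 was higher and 0 were lower, and none was lower at an unadjusted p under 0.05, by DESeq2 or by limma-voom either. The receptor gene csf1ra read 4.34, 9.82 and 3.72 CPM in uninjured libraries 1, 2 and 3 and 3.54, 5.83 and 6.88 CPM in the poked PLX3397 libraries, and the groups overlapped. Its log2 fold change was -0.15 ± 0.51 (SE; edgeR adjusted p = 0.84), and it turned to 0.45 without uninjured library 2 and to 0.084 without poked PLX3397 library 1. For csf1rb the values were 0.977, 0.78 and 0.353 CPM and 0.147, 0.338 and 0.378 CPM, with a log2 fold change of -1.29 ± 0.72 (adjusted p = 0.17). il34, a Csf1r ligand made mostly outside the myeloid cells, read 3.91, 2.12 and 2.74 CPM in uninjured retinas and 45.9, 74.2 and 57 CPM in poked PLX3397 retinas. All poked libraries lay far above the uninjured ones, with a log2 fold change of 4.35 ± 0.23 (edgeR adjusted p = 4.9e-08). Poked DMSO libraries read 16.9, 14.9 and 15.7 CPM, and il34 was higher with PLX3397 than with DMSO (log2 difference 1.90 ± 0.20, edgeR adjusted p = 2.7e-05). In that same test csf1ra was lower with PLX3397 (log2 difference -1.66 ± 0.52, adjusted p = 0.024), where DMSO libraries read 10.8, 6.7 and 34 CPM and the lowest of them overlapped PLX3397. That call ended without poked DMSO library 3 (-0.70, adjusted p = 0.21), without poked PLX3397 library 1 (-1.43) or 2 (-1.72), and without the 4 libraries that stand apart in an earlier account of these data (-0.74), which are library 2 of both groups, poked DMSO library 3 and 1 ZVAD-fmk library. It also ended by limma-voom (-1.36), in a fit of these 2 groups alone (-1.62) and with no filter on low counts (adjusted p = 0.052). Leaving out the 4 libraries takes 1 library from each group, picked in these same data because it stood apart. In the uninjured, PLX3397 and DMSO groups the libraries left are the closest pair, so fewer and more alike libraries measure the spread. Between PLX3397 and uninjured retinas that fit called 10302 genes, against 9149 with all libraries. Calls gained in that fit, here and below, carry this limit.

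Microglia and macrophage genes were mostly not called. Of 51 tested members of a list of 54, 9 were higher, 6 were lower and 36 were not called, shares of 17.6% and 11.8% that lie under the backgrounds of 23.0% and 19.9%, and the list median was 0.15. Without the 4 libraries that stand apart, 18 were higher and 9 lower of 49, so that the higher share of 36.7% came to lie above the background of that fit, 27.0%, and the lower share of 18.4% near its 20.7%. Poked DMSO retinas, in contrast with the same uninjured libraries, had 37 higher and 1 lower (backgrounds 18.2% and 13.4%), with a median of 2.37, or 22 higher and 2 lower with a median of 1.05 without poked DMSO library 3. The direct test of PLX3397 against DMSO called 3 members higher and 33 lower (backgrounds 16.5% and 17.7%), with a median of -2.53. Much of that size rests on poked DMSO library 3: without it, 3 were higher and 23 lower, and the median was -0.93. MPEG1 (ENSDARG00000055290), which encodes the macrophage pore protein perforin-2, is an example, with 3.53, 6.53 and 4.21 CPM in uninjured, 1.49, 2.03 and 3.18 CPM in poked PLX3397 and 10.1, 9.99 and 57.1 CPM in poked DMSO libraries. The PLX3397 libraries all lay below both other groups, but only the difference from DMSO was called (log2 -3.53 ± 0.61, edgeR adjusted p = 0.00074). In a fit of PLX3397 and uninjured libraries alone, MPEG1 was called lower than uninjured (-1.10). P2RY12, the purine receptor of resting microglia, read 0.0814, 0.272 and 0.869 CPM, 0.0655, 0.0356 and 0.318 CPM and 0.506, 0.945 and 1.95 CPM in the same order, and was not called against uninjured retinas. Its call against DMSO (log2 -3.02 ± 1.01) ended in a fit of these 2 groups alone (-2.97), without the 4 libraries (-1.90), and without poked PLX3397 library 1 (-2.67) or 2 (-2.56) or poked DMSO library 2 (-3.13) or 3 (-2.37). apoeb, the apolipoprotein that microglia and Müller glia both make, read 9325, 14515 and 10461 CPM and 9919, 14833 and 13342 CPM, with overlapping groups and a log2 fold change of 0.15 ± 0.22.

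A few members of the list changed by a large factor. Those that fell and are named here are linked to antigen presentation, chemokines and the uptake of dead cells. The chemokine gene ccl34b.1, known as a marker of a phagocytic class of zebrafish microglia, read 4.12, 7.66 and 5.35 CPM in uninjured libraries and 0.115, 0 and 0.139 CPM in poked PLX3397 libraries, near the limit of detection, with a log2 fold change of -6.06 ± 0.85 (edgeR adjusted p = 8.6e-05). cd74a, the invariant chain that guides MHC class II, read 18.8, 38.1 and 21 CPM and 1.54, 0.534 and 0.755 CPM. Every poked library lay below every uninjured one, with a log2 fold change of -4.77 ± 0.67 (edgeR adjusted p = 9.3e-05). Its paralog cd74b fell by less, from 6.57, 10.1 and 6.19 CPM to 0.917, 1.67 and 1.45 CPM (log2 -2.50 ± 0.53, adjusted p = 0.0018). timd4, a receptor for phosphatidylserine on dying cells, fell from 2.79, 2.8 and 1.17 CPM to 0.0819, 0.214 and 0 CPM (log2 -4.47 ± 0.95, adjusted p = 0.002). All 4 of these were also lower than in poked DMSO retinas, where ccl34b.1 read 4.07, 4.44 and 21.1 CPM and cd74a 8.99, 10.1 and 48 CPM. The members that rose include AXL, a receptor tyrosine kinase that clears dying cells and is also made outside the myeloid lineage, which went from 0.38, 0.236 and 0.244 CPM to 6.76, 12 and 9.26 CPM (log2 5.04 ± 0.31, edgeR adjusted p = 1.3e-07). The granulin gene grna.1 went from 4.1, 1.02 and 2.9 CPM to 8.68, 19.9 and 22.9 CPM (log2 2.71 ± 0.63, adjusted p = 0.0036). Of the C1q genes, typical of microglia, c1qb read 5.44, 5.92 and 31.1 CPM in poked DMSO libraries, the highest value being that of library 3. All of these values lay above those of the poked PLX3397 libraries. c1qa had 0 counts in all uninjured libraries and 0.524, 0.623 and 0.477 CPM in the poked ones, at least 23.3-fold higher than 3 counts over the uninjured group, and c1qb and c1qc, at 0.461, 1.03 and 0.217 CPM and 0.57, 0.399 and 0.489 CPM in uninjured and 1.06, 1.76 and 1.43 CPM and 0.622, 1.18 and 1.51 CPM in poked PLX3397 libraries, were not called. By limma-voom c1qa was not called, and c1qb was called higher without the 4 libraries that stand apart (log2 1.90). The C1q genes read at most 1.76 CPM in uninjured and poked PLX3397 libraries, and how reads were split among them was not tested.

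**Figure D2:**
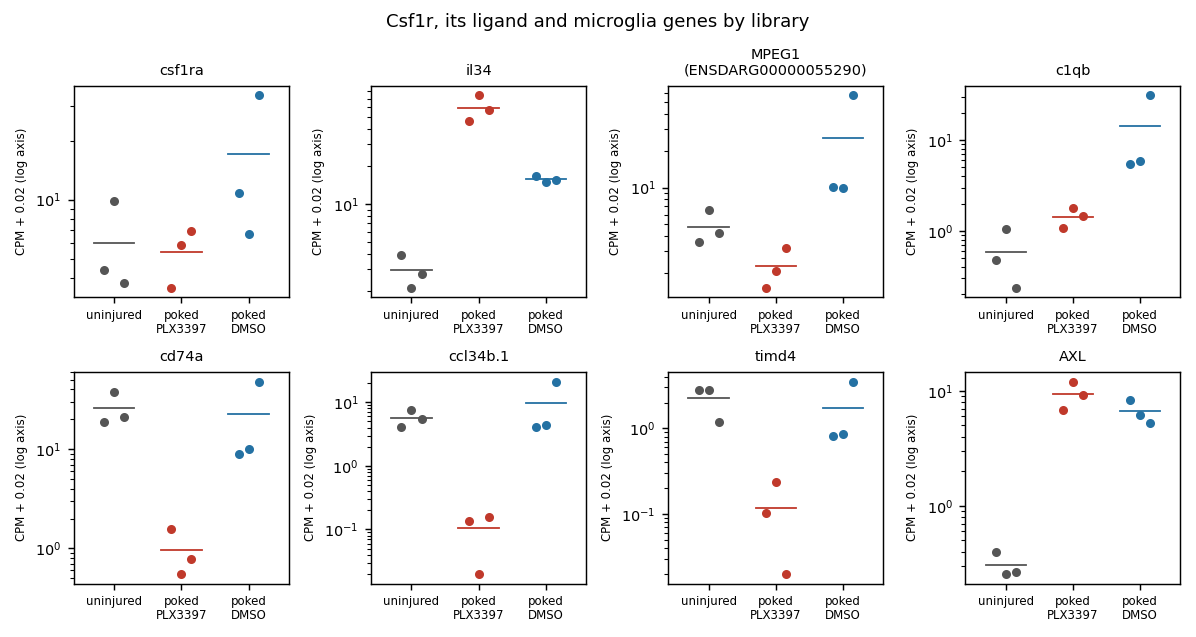
CPM of 8 genes in each library (points, log axis with 0.02 added so that 0 can be drawn) of uninjured, poked PLX3397 and poked DMSO retinas; horizontal bars are group means. il34 is highest with PLX3397, cd74a, ccl34b.1 and timd4 are lowest with PLX3397, and csf1ra, MPEG1, c1qb and AXL are shown beside them, AXL being raised in both poked groups.

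Of 14 neutrophil genes 6 were higher (42.9% against the background of 23.0%) and 0 lower, with a median of 0.99. An unadjusted p under 0.05 gave 1 lower and DESeq2 and limma-voom 0. In poked libraries most of the reads of this list belonged to MMP9, a secreted gelatinase that injured zebrafish glia are also known to make. It read 0.868, 0.708 and 0.787 CPM in uninjured libraries and 654, 1203 and 712 CPM in poked PLX3397 libraries. This was one of the 10 largest rises named, with a log2 fold change of 10.09 ± 0.33 (edgeR adjusted p = 1.4e-09), and poked DMSO libraries read 691, 696 and 956 CPM. Of 10 lymphocyte genes 0 were higher and 2 lower (20.0%, near the background of 19.9%). An unadjusted p under 0.05 gave 1 higher, DESeq2 and limma-voom 0.

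Of the 43 list medians, that of the complement genes was the highest, at a log2 fold change of 3.93. It was 2.86 with genes at 0 counts in a group set to their bound. Of 18 tested members (27 listed), 11 were higher (61.1% against the background of 23.0%) and 1 lower (5.56% against 19.9%). c7b, a component of the membrane attack complex, read 18.8, 24.3 and 21.6 CPM in uninjured libraries and 4216, 8646 and 4735 CPM in poked PLX3397 libraries. No library of either group came near the other, and the log2 fold change was 8.09 ± 0.35 (edgeR adjusted p = 1.8e-08). c4b, part of the classical and lectin routes, rose from 2.17, 3.21 and 1.9 CPM to 531, 959 and 732 CPM (log2 8.24 ± 0.28, edgeR adjusted p = 2.2e-09). The central component c3a.1 rose from 0.0543, 0.182 and 0 CPM to 8.56, 15.8 and 10.1 CPM (log2 6.97 ± 0.59, edgeR adjusted p = 1.7e-06), and c6.2 from 0.597, 0.635 and 0.597 CPM to 29.3, 47.6 and 22.5 CPM (log2 5.75 ± 0.32, adjusted p = 7.2e-08). All 4 were higher with PLX3397 than with DMSO as well, by a log2 difference of 1.31 ± 0.26 for c7b, 1.58 ± 0.21 for c4b, 3.30 ± 0.45 for c3a.1 and 1.09 ± 0.24 for c6.2. The list also rose in poked DMSO retinas against the same uninjured libraries, with 10 of 18 higher, 2 lower and a median of 4.08. The direct test of PLX3397 against DMSO called 9 higher and 3 lower (50.0% and 16.7% against backgrounds of 16.5% and 17.7%). MASP1, a protease that starts the lectin route, fell (log2 -1.16 ± 0.26, edgeR adjusted p = 0.0026).

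Cytokine genes of the gp130 and leptin families were among those that went from near silence to ready detection. clcf1, a ligand of the ciliary neurotrophic factor receptor, had 1 count over the 3 uninjured libraries and read 60.6, 127 and 68.6 CPM in the poked PLX3397 libraries. lepb, a zebrafish leptin induced in regenerating tissues, read 0.109, 0.272 and 0 CPM and 38.1, 69.4 and 26.9 CPM, and every poked library lay far above every uninjured one (log2 8.25 ± 0.59, edgeR adjusted p = 4.2e-07). il11a, an interleukin of the gp130 family, read 0.0543, 0.799 and 0.38 CPM and 25.3, 125 and 20.3 CPM, with library 2 the highest of the poked group (log2 6.99 ± 1.09, edgeR adjusted p = 0.00021). By limma-voom the change of il11a was as large (7.02) and was not called. Of the receptors and transducers of these cytokines, some rose and others did not. The leptin receptor lepr went from 7.76, 6.62 and 7.27 CPM to 68.8, 182 and 86.1 CPM (log2 3.96 ± 0.30, edgeR adjusted p = 7e-07), and il6st, which encodes gp130, from 49.6, 61.2 and 48.4 CPM to 182, 300 and 185 CPM (log2 2.06 ± 0.18, adjusted p = 2.3e-06). The kinase JAK1 and the transcription factor STAT3 rose by 1.40 ± 0.15 and 1.80 ± 0.14 on the log2 scale. STAT3 read 39.5, 50.7 and 40.8 CPM in uninjured and 137, 167 and 152 CPM in poked PLX3397 libraries, with no overlap (edgeR adjusted p = 7e-07). cntfr, the receptor subunit that binds ciliary neurotrophic factor, was lower (log2 -0.64 ± 0.16). The interleukin 11 receptor il11ra (log2 0.44 ± 0.20) and the kinase JAK2 (log2 0.16) were not called, although il11ra was called higher without poked PLX3397 library 1 (0.59) and JAK2 without uninjured library 2 (0.35) or the 4 libraries (0.27). Over the Jak-Stat list, 11 of 25 were higher, a share above the background of 23.0%, and 4 were lower, a share under the background of 19.9%. Among those lower was mcl1a, a survival factor and a Stat3 target in other species, which fell by 1.44 on the log2 scale.

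The inflammatory cytokine il1b read 3.69, 3.58 and 2.99 CPM and 1.56, 7 and 3.04 CPM and was not called (log2 0.18 ± 1.02, and -0.58 without poked PLX3397 library 2). In poked DMSO retinas il1b read 3.01, 3.82 and 105 CPM, a group mean that rests on library 3. The chemokine cxcl18b rose from 63.6, 109 and 70.5 CPM to 857, 1811 and 918 CPM (log2 3.88 ± 0.37, edgeR adjusted p = 3.9e-06) and was higher than with DMSO (log2 difference 1.33 ± 0.33, adjusted p = 0.0079). In the inflammation list as a whole, 15 of 32 were higher (46.9% against the background of 23.0%) and 1 was lower (3.12% against 19.9%). The remaining 16 were not called. The list median was 1.63, and 1.49 with genes at 0 counts set to their bound. The gene that fell was nfkbiab, an inhibitor of NF-kappaB (log2 -1.41 ± 0.20, adjusted p = 0.00011). Of 28 interferon response genes, 11 were higher (39.3% against the background of 23.0%) and 2 lower (7.14% against 19.9%). TAP1, a peptide transporter of antigen presentation, rose (log2 2.53 ± 0.16, edgeR adjusted p = 1.8e-07), while the antiviral gene RSAD2 fell (log2 -3.40 ± 0.90, adjusted p = 0.0081).

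Genes of iron handling included 3 large rises. STEAP4, a ferrireductase induced by cytokines, read 18.2, 21.8 and 19.3 CPM in uninjured libraries and 720, 936 and 1096 CPM in poked PLX3397 libraries. The lowest poked library was far above the highest uninjured one, and the log2 fold change was 5.53 ± 0.20 (edgeR adjusted p = 2.9e-09). tfa, which encodes the iron carrier transferrin, read 0.651, 0 and 0.163 CPM and 9.77, 14.2 and 19.2 CPM (log2 5.82 ± 1.01, edgeR adjusted p = 0.00045). Poked DMSO libraries read 0.732, 0.144 and 0 CPM of tfa, which overlaps the uninjured range, and tfa was among the genes furthest above DMSO (log2 difference 5.45 ± 0.95, edgeR adjusted p = 0.00078). hamp, the iron hormone hepcidin, rose from 0.136, 0 and 0 CPM to 3.5, 4.65 and 2.66 CPM (log2 6.40 ± 1.07, adjusted p = 0.00034). The storage protein genes fth1a and FTH1 fell by 1.26 and 1.05 on the log2 scale. The iron list counted 8 higher (42.1% against the background of 23.0%) and 5 lower (26.3% against 19.9%) of 19.

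Of 65 tested genes listed for injury-associated reprogramming of Müller glia, 22 were higher (33.8% against the background of 23.0%), 12 were lower (18.5% against 19.9%) and 31 were not called, with a median of 0.11. Without poked PLX3397 library 2 the counts were 18 higher and 14 lower with a median of -0.07. Several of the best known members rose and were not called against poked DMSO retinas. ascl1a, the proneural factor required for glia to become progenitors in zebrafish, read 4.91, 21.1 and 8.6 CPM in uninjured libraries and 245, 738 and 238 CPM in poked PLX3397 libraries. Every poked library lay far above the highest uninjured one, with a log2 fold change of 5.13 ± 0.57 (edgeR adjusted p = 1.4e-05). LIN28A (ENSDARG00000016999), an RNA-binding protein that blocks let-7 microRNAs, read 8.84, 0.744 and 6.54 CPM and 73.2, 150 and 64.5 CPM (log2 4.18 ± 0.61, edgeR adjusted p = 0.00012). hbegfa, an EGF receptor ligand that can start reprogramming, rose from 14.8, 26.3 and 19.9 CPM to 133, 219 and 112 CPM (log2 2.92 ± 0.29, edgeR adjusted p = 6.1e-06). Against poked DMSO, none of the 3 was called, with log2 differences of 0.23 ± 0.48, -0.42 ± 0.53 and 0.48 ± 0.27 in that order. DMSO libraries read 310, 311 and 421 CPM of ascl1a and 118, 121 and 148 CPM of LIN28A. A difference that misses the threshold does not show equal levels. The corepressor TGIF1 (log2 2.21 ± 0.36), the cytidine deaminase APOBEC2 (ENSDARG00000113992) (log2 5.73 ± 0.48) and the stem cell factor SOX2 (log2 0.81 ± 0.16) rose too. MET, the receptor of hepatocyte growth factor, went from 0.19, 0.309 and 0 CPM to 39.7, 82 and 37.1 CPM (log2 8.16 ± 0.50, edgeR adjusted p = 1.4e-07), and the sheddase adam8a from 2.55, 0.454 and 2.31 CPM to 47.5, 186 and 48.6 CPM (log2 5.78 ± 0.70, adjusted p = 2.9e-05). The early response genes JUN and FOS had log2 fold changes of -0.45 ± 0.24 and -0.27 ± 0.25 and were not called. Without the 4 libraries that stand apart both were called lower (-0.27 and -0.24). In uninjured libraries FOS read 7446, 11642 and 7688 CPM.

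**Figure D3:**
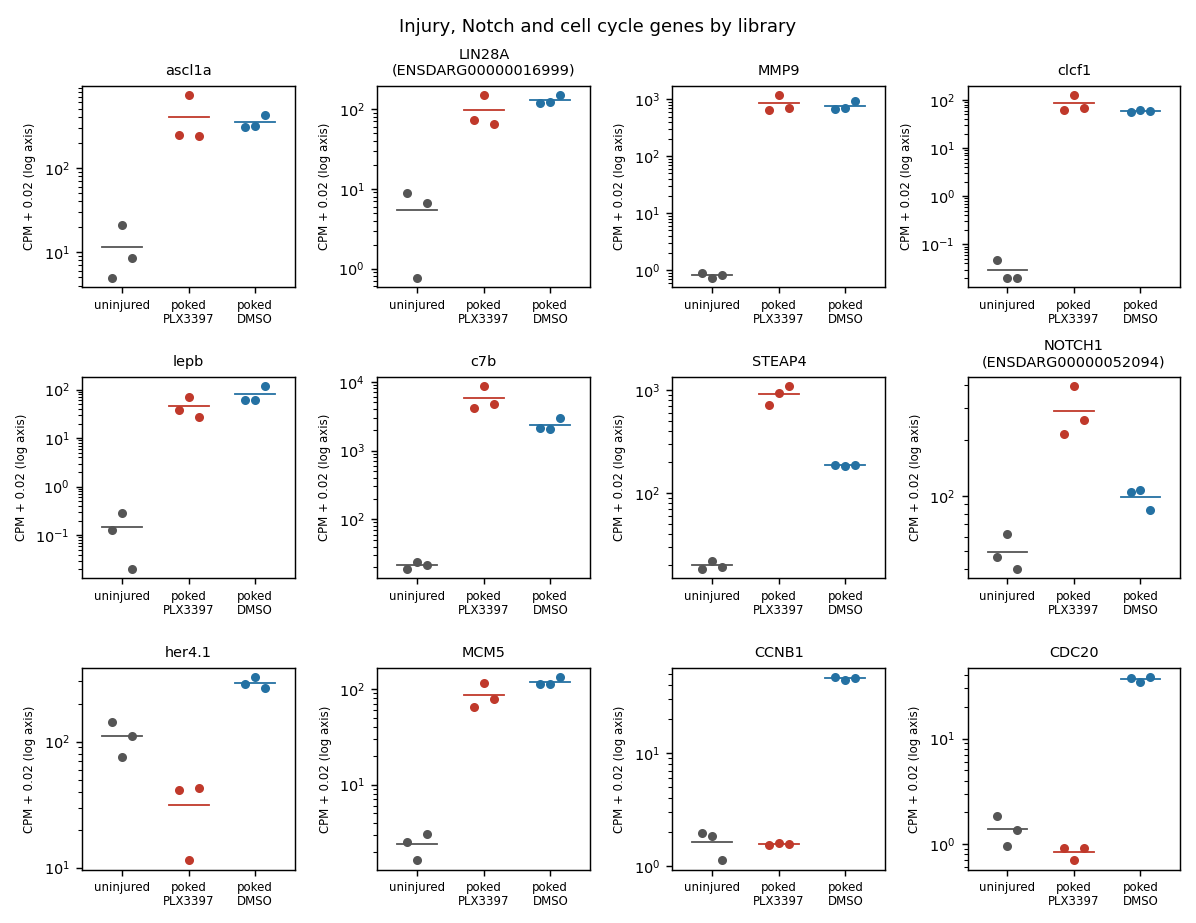
CPM of 12 genes in each library (points, log axis with 0.02 added) of uninjured, poked PLX3397 and poked DMSO retinas; bars are group means. ascl1a, LIN28A, MMP9, clcf1, lepb and MCM5 are raised in both poked groups, c7b and STEAP4 are highest with PLX3397, NOTCH1 is highest with PLX3397 while her4.1 is lowest, and CCNB1 and CDC20 are highest with DMSO.

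Of 28 tested genes of the Notch pathway, 7 were higher (a share near the background of 23.0%), 9 were lower (32.1% against 19.9%) and 12 were not called. Those higher include receptors and ligands, and those lower include target genes and 1 ligand. Both NOTCH1 genes rose: NOTCH1 (ENSDARG00000052094) read 46.3, 61.9 and 39.9 CPM in uninjured and 216, 395 and 258 CPM in poked PLX3397 libraries (log2 2.55 ± 0.23, edgeR adjusted p = 2.3e-06), and NOTCH1 (ENSDARG00000103554) rose by 2.19 ± 0.20. The ligands jag1a and dlc rose from 0.841, 1.2 and 0.95 CPM to 2.5, 4.65 and 6.1 CPM and from 6.24, 5.46 and 4.45 CPM to 49.3, 95.3 and 48.8 CPM (log2 2.14 ± 0.36 and 3.58 ± 0.25). The ligand dll4 fell by 1.02 on the log2 scale. The ligands dlb, DLD, jag1b and jag2a and the receptor NOTCH3 were not called, with log2 fold changes of -0.04, -0.24, 0.06, -0.39 and 0.35 in that order, and NOTCH3 was called higher without uninjured library 2 (0.60) or the 4 libraries (0.48) and DLD lower without poked PLX3397 library 2 (-0.33) or the 4 libraries (-0.22). Of the target genes, her4.1 read 144, 75.7 and 110 CPM in uninjured, 41.1, 11.4 and 42.5 CPM in poked PLX3397 and 286, 324 and 268 CPM in poked DMSO libraries. The 3 groups did not overlap, PLX3397 being the lowest and DMSO the highest. The log2 fold change from uninjured was -1.80 ± 0.45 (edgeR adjusted p = 0.0056) and the log2 difference from DMSO was -3.21 ± 0.47 (adjusted p = 0.00024). HES1 fell from 872, 2692 and 1103 CPM to 649, 545 and 416 CPM (log2 -1.54 ± 0.35, edgeR adjusted p = 0.0031), HEY1 from 137, 332 and 154 CPM to 47.8, 28.7 and 52.2 CPM (log2 -2.27 ± 0.32, adjusted p = 7.9e-05) and HEY2 by 3.18 on the log2 scale. For HES1 and HEY1 every poked library lay below every uninjured one. Uninjured library 2 was by far the highest of its group, so the size of both falls rests partly on it. The targets her12 (log2 -1.38), her15.1 (-0.69) and her2 (-0.84) were not called. Without poked PLX3397 library 1 her12 (-2.04) and her15.1 (-1.05) were called lower, as was her12 by limma-voom (-1.82), with the replicate block (-1.65) and without the 4 libraries (-0.83) and her2 without the 4 libraries (-0.85). The Id factors ID1 and id2b, repressors of differentiation, fell by 1.68 and 2.47 on the log2 scale. her4 genes lie in a cluster of near-identical copies, among which reads may be split with error.

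The DNA replication list rose almost as a whole. Of 77 members tested, 73 were higher (94.8% against the background of 23.0%), 0 were lower and 4 were not called, and the median log2 fold change was 2.35. None was lower at an unadjusted p under 0.05, by DESeq2 or by limma-voom. MCM5, a subunit of the replicative helicase, read 2.47, 1.6 and 3.01 CPM in uninjured libraries and 65.1, 115 and 78.3 CPM in poked PLX3397 libraries, with no library of one group near the other and a log2 fold change of 5.21 ± 0.26 (edgeR adjusted p = 3.3e-08). MCM2 rose from 1.71, 2.52 and 0.95 CPM to 73.8, 133 and 105 CPM (log2 5.88 ± 0.31, edgeR adjusted p = 5.3e-08). The sliding clamp PCNA rose from 35, 37.4 and 31.2 CPM to 137, 233 and 154 CPM (log2 2.34 ± 0.20, edgeR adjusted p = 1.6e-06). Licensing and precursor supply followed, with the licensing factor CDC6 at 3.77 ± 0.29, the thymidylate synthase TYMS at 4.65 ± 0.30 and RRM2 (ENSDARG00000020711), a subunit of ribonucleotide reductase, at 2.05 ± 0.33 on the log2 scale. CCND1, the cyclin of early G1, rose from 30, 40.3 and 28.9 CPM to 167, 257 and 212 CPM (log2 2.68 ± 0.18, edgeR adjusted p = 2.8e-07). Against poked DMSO, MCM2 and MCM5 were not called (log2 differences -0.11 ± 0.24 and -0.46 ± 0.21), whereas PCNA (-1.31 ± 0.19), TYMS (-1.67 ± 0.24) and RRM2 (-2.85 ± 0.32) were lower. Of the 77, the test against DMSO called 1 higher (1.3% against its background of 16.5%) and 55 lower (71.4% against 17.7%), with a median of -0.83. Without poked DMSO library 3 it called 0 higher and 41 lower.

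Most mitosis genes were higher too, though a smaller share than of the replication genes. Several that act at the core of mitosis were not called or were lower. CCNB1, the cyclin that drives entry into mitosis, read 1.93, 1.85 and 1.11 CPM in uninjured, 1.51, 1.6 and 1.55 CPM in poked PLX3397 and 46.4, 43.8 and 45.9 CPM in poked DMSO libraries. Uninjured and PLX3397 libraries overlapped (log2 -0.077 ± 0.20, with the sign turned without uninjured library 1 at 0.049 or without uninjured library 2 at 0.059, edgeR adjusted p = 0.79), while every DMSO library lay far above both (log2 difference of PLX3397 from DMSO -4.87 ± 0.21, edgeR adjusted p = 4.2e-08). CDC20, an activator of the anaphase-promoting complex, fell from 1.84, 0.944 and 1.33 CPM to 0.9, 0.677 and 0.894 CPM (log2 -0.72 ± 0.23, edgeR adjusted p = 0.023) and read 37.4, 34.2 and 38.3 CPM with DMSO, a log2 difference of -5.47 ± 0.24 (adjusted p = 4.2e-08). The spindle protein NUSAP1 gave 1.98, 2.7 and 3.77 CPM, 1.75, 1.23 and 1.53 CPM and 55.2, 50.7 and 55.2 CPM, also lower than in both other groups (log2 -0.90 ± 0.23 and -5.15 ± 0.25). The falls of CDC20 and NUSAP1 from the uninjured level are small. Both calls ended by limma-voom (-0.62 and -0.86) and in a fit of these 2 groups alone (-0.74 and -0.91), and that of CDC20 also without uninjured library 1 (-0.45), uninjured library 3 (-0.71) or poked PLX3397 library 2 (-0.59). aurka, the kinase of centrosome maturation, was not called against uninjured retinas (log2 0.50 ± 0.43). CDK1 read 1.28, 1.14 and 0.841 CPM, 3.88, 3.67 and 2.4 CPM and 64.9, 61.8 and 72.5 CPM, so its rise (log2 1.61 ± 0.23, edgeR adjusted p = 9.1e-05) left it far under the DMSO level. The proliferation marker mki67 rose from 7.08, 6.61 and 7.41 CPM to 26.2, 30.1 and 22.3 CPM (log2 1.90 ± 0.14, edgeR adjusted p = 4.8e-07), against 206, 210 and 239 CPM with DMSO. Of 95 tested genes in the list, 67 were higher (70.5% against the background of 23.0%) and 3 lower (3.16% against 19.9%). The remaining 25 were not called, and the list median was 1.54. Poked DMSO against the same uninjured libraries gave 90 higher (94.7% against a background of 18.2%), 0 lower (background 13.4%) and a median of 4.58. There 2 were lower at an unadjusted p under 0.05 or by DESeq2 and 0 by limma-voom. The direct test called 1 higher (1.05% against its background of 16.5%) and 89 lower (93.7% against 17.7%) with PLX3397, with a median of -2.37. Without poked DMSO library 3 it called 1 higher and 87 lower.

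Both cycle inhibitors named here fell. The list of cyclins and Cdk inhibitors as a whole counted 13 higher (44.8% against the background of 23.0%) and 6 lower (20.7%, near the background of 19.9%) of 29. cdkn1a, which encodes p21, read 198, 107 and 174 CPM in uninjured and 58.8, 65.9 and 79.8 CPM in poked PLX3397 libraries (log2 -1.23 ± 0.22, edgeR adjusted p = 0.00068). CDKN1B (ENSDARG00000054271), which encodes p27, fell from 208, 206 and 214 CPM to 64, 60.8 and 65.1 CPM (log2 -1.73 ± 0.12, adjusted p = 3.3e-07). Of 28 apoptosis genes, 20 were not called, 2 were higher (7.14% against the background of 23.0%) and 6 lower (21.4%, near the background of 19.9%).

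**Figure D4:**
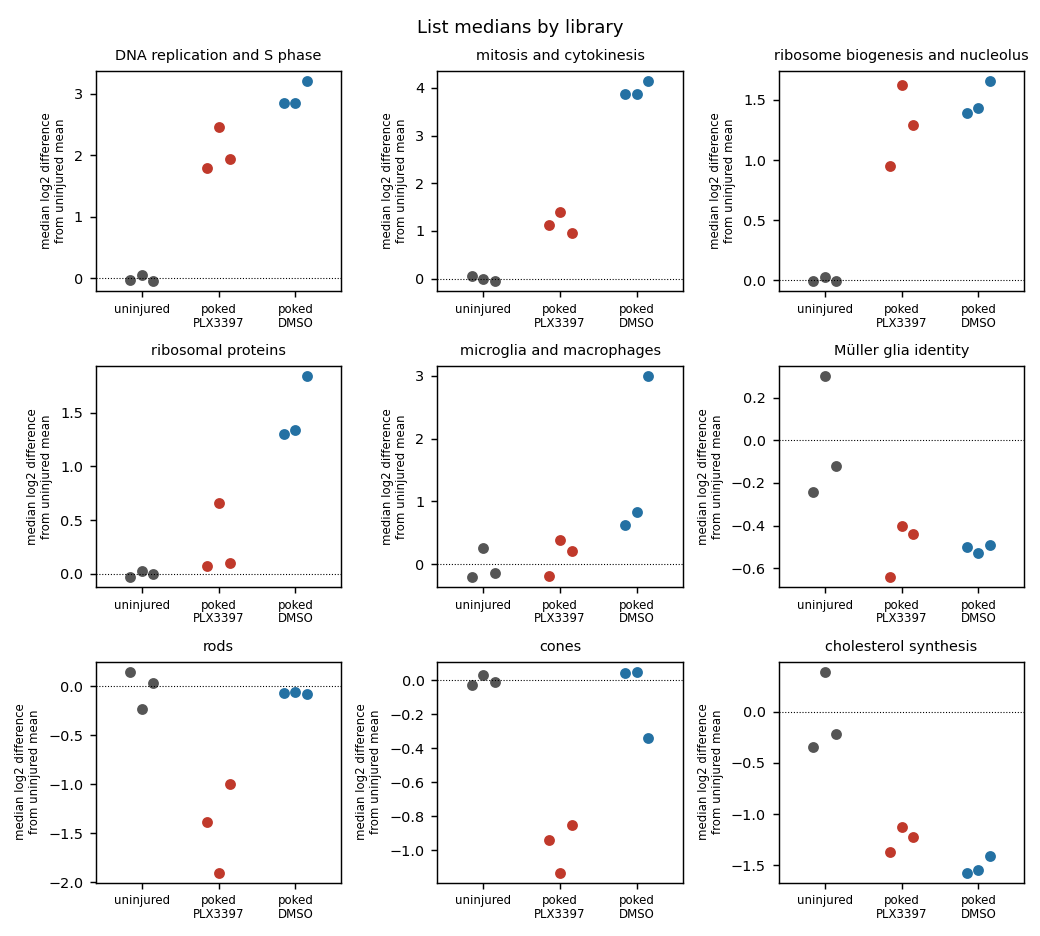
Median over list members of the log2 difference from the uninjured mean (log2 of CPM plus 0.5, y axis) in each library (points) of uninjured, poked PLX3397 and poked DMSO retinas for 9 lists. Mitosis and ribosomal proteins stand far lower with PLX3397 than with DMSO, ribosome biogenesis overlaps between the poked groups, and rods and cones are lowest in the 3 PLX3397 libraries.

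Genes of ribosome assembly rose, and most ribosomal protein genes were not called. Of 40 genes of the nucleolus and of ribosome assembly, 37 were higher (92.5% against the background of 23.0%), 0 were lower and 3 were not called. The list median was 1.35, and none was lower at an unadjusted p under 0.05, by DESeq2 or by limma-voom. npm1a, the nucleolar chaperone nucleophosmin, rose from 17.1, 16.6 and 13.7 CPM to 68.5, 121 and 79.6 CPM (log2 2.51 ± 0.23, edgeR adjusted p = 2.5e-06), and DKC1, the pseudouridine synthase dyskerin, from 14.4, 16.9 and 21.7 CPM to 59.4, 112 and 79 CPM (log2 2.24 ± 0.22, adjusted p = 4.7e-06). Of 73 ribosomal protein genes, however, 13 were higher (17.8% against the background of 23.0%), 2 lower (2.74% against 19.9%) and 58 not called, with a median of 0.29. RPLP0 read 356, 396 and 350 CPM and 380, 679 and 447 CPM and was not called (log2 0.45 ± 0.23, and called at 0.62 without poked PLX3397 library 1), while poked DMSO libraries read 999, 968 and 1549 CPM. PLX3397 was lower than DMSO for RPLP0 (log2 -1.22 ± 0.23, edgeR adjusted p = 0.0012) and for 72 of the 73 genes (98.6% against the background of 17.7% in that test), with a median of -1.23. In that test 0 were higher (background 16.5%), also at an unadjusted p under 0.05, by DESeq2 and by limma-voom. The count of 13 higher than uninjured rests partly on poked PLX3397 library 2, without which 4 were higher and 2 lower.

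Of 37 neurogenic genes 5 were higher (13.5% against the background of 23.0%) and 14 lower (37.8% against 19.9%). The direct test against DMSO called 0 higher and 16 lower (43.2% against its background of 17.7%), with 2 higher at an unadjusted p under 0.05 and 0 by DESeq2 and limma-voom. OLIG2, a factor of dividing progenitors, read 3.66, 5.64 and 2.88 CPM in uninjured, 1.54, 1.03 and 1.95 CPM in poked PLX3397 and 26, 22.5 and 17.4 CPM in poked DMSO libraries. PLX3397 libraries lay below both other groups, with log2 differences of -1.44 ± 0.31 (edgeR adjusted p = 0.0023) from uninjured and -3.87 ± 0.33 (adjusted p = 6.3e-06) from DMSO. INSM1 (ENSDARG00000091756), a zinc-finger repressor that lets progenitors leave the cycle in the injured zebrafish retina, showed the same order, with 15.6, 19.9 and 15.8 CPM, 8.89, 4.86 and 6.28 CPM and 23.5, 23.9 and 39.7 CPM (log2 -1.36 ± 0.24 from uninjured, adjusted p = 0.00062). FOXN4, a factor of early retinal progenitors, rose from 2.66, 2.81 and 3.64 CPM to 7.02, 7.43 and 9.6 CPM (log2 1.40 ± 0.17, edgeR adjusted p = 2.7e-05), yet DMSO libraries read 46, 43 and 37.4 CPM. Genes listed for axon regeneration counted 8 higher (24.2%, near the background of 23.0%) and 10 lower (30.3% against 19.9%) of 33 tested, with a median of -0.10. The growth-cone protein gap43, high in axons that regrow, read 11.9, 5.34 and 12.6 CPM, 56.4, 22.4 and 66.3 CPM and 243, 268 and 242 CPM, rising from uninjured (log2 2.29 ± 0.36, adjusted p = 0.00021) and lying under DMSO (log2 -2.38 ± 0.35, adjusted p = 0.00026). STMN4 (ENSDARG00000030106), a stathmin of growing neurites, and DPYSL3, a collapsin response mediator, were called lower (log2 -1.62 ± 0.32 and -0.93).

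Photoreceptor genes fell in poked PLX3397 retinas, while poked DMSO retinas against the same uninjured libraries had 2 rod genes higher and 3 lower and 6 cone genes higher and 4 lower. Of 38 rod genes, 29 were lower (76.3% against the background of 19.9%), 0 higher and 9 not called, with a median of -1.51, and 1 was higher at an unadjusted p under 0.05 or by DESeq2 and 0 by limma-voom. GNAT1, the rod transducin, read 1149, 746 and 1079 CPM in uninjured, 130, 119 and 250 CPM in poked PLX3397 and 836, 807 and 927 CPM in poked DMSO libraries. The PLX3397 libraries lay far below all others, with a log2 fold change from uninjured of -2.58 ± 0.27 (edgeR adjusted p = 7.7e-06). Poked PLX3397 was also lower than poked DMSO for GNAT1 (log2 difference -2.37 ± 0.26, edgeR adjusted p = 3.9e-05). The rod fate genes NR2E3 (log2 -0.49 ± 0.30) and nrl (log2 -0.96 ± 0.42) were not called, although NR2E3 was called without poked PLX3397 library 3 (-1.05) and nrl without uninjured library 2 (-1.21). Of 36 cone genes, 23 were lower (63.9% against the background of 19.9%) and 1 higher (2.78% against 23.0%), with a median of -0.92. opn1lw2, a red opsin, read 714, 656 and 767 CPM and 60.8, 43.1 and 58.3 CPM, a log2 fold change of -3.72 ± 0.18 (edgeR adjusted p = 3.3e-08), and 422, 385 and 493 CPM with DMSO. Red and green opsin genes are tandem copies of like sequence, so the split of reads among them is uncertain. The green opsin opn1mw3 was the cone gene that rose, from 35.5, 64.8 and 40.7 CPM to 89.8, 117 and 90 CPM (log2 1.07 ± 0.29, adjusted p = 0.0094). The cone phosphodiesterase PDE6C (log2 -1.29 ± 0.21) and transducin GNAT2 (log2 -0.88 ± 0.19) fell, and the fate genes THRB (log2 -0.37 ± 0.21) and six7 (log2 0.27 ± 0.25) were not called. Without the 4 libraries that stand apart THRB was called lower (-0.26) and six7 higher (0.46), and THRB was also called in a fit of PLX3397 and uninjured libraries alone (-0.37). The direct test against DMSO called 31 rod genes (81.6%) and 23 cone genes (63.9%) lower, against its background of 17.7%. It called 0 of either list higher, against its background of 16.5%. At an unadjusted p under 0.05 or by DESeq2, 1 rod gene and 0 cone genes were higher, and 0 by limma-voom.

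Inner retinal neuron lists also held more lower than higher genes. The lower shares were 63.0% for bipolar, 64.3% for ganglion, 50.0% for horizontal and 29.2% for amacrine cells, against the background of 19.9%. The higher shares were 0.0%, 10.7%, 16.7% and 8.33% in that order, against 23.0%. Bipolar cell genes counted 17 lower and 0 higher of 27 (median -0.98, with 1 higher at an unadjusted p under 0.05 or by DESeq2 and 0 by limma-voom), ganglion cell genes 18 lower and 3 higher of 28 (median -1.16), horizontal cell genes 6 lower and 2 higher of 12 (median -0.80) and amacrine cell genes 7 lower and 2 higher of 24 (median -0.30). VSX1, a bipolar transcription factor, read 181, 124 and 143 CPM in uninjured and 48.7, 19.4 and 30.6 CPM in poked PLX3397 libraries, with no overlap and a log2 fold change of -2.18 ± 0.27 (edgeR adjusted p = 3.2e-05). ISL2 (ENSDARG00000053499), a ganglion cell factor, read 39.3, 15.9 and 36.3 CPM and 6.56, 1.8 and 6.54 CPM (log2 -2.62 ± 0.43, edgeR adjusted p = 0.00029), and here the DMSO libraries were also low, at 7.29, 8.39 and 6.76 CPM. The neuropeptide NPY fell from 40.6, 15.8 and 37.3 CPM to 7.32, 2.17 and 5.25 CPM (log2 -2.66 ± 0.40, adjusted p = 0.00015). In NPY, ISL2 and VSX1, library 2 was the lowest of the uninjured group and library 2 the lowest of the poked PLX3397 group.

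Many genes of mature Müller glia fell. Of 54 identity genes, 25 were lower (46.3% against the background of 19.9%) and 8 higher (14.8% against 23.0%). The remaining 21 were not called, and the list median was -0.51. GLUL (ENSDARG00000099776), the glutamine synthetase of glia, read 11959, 19389 and 13254 CPM in uninjured and 3397, 2747 and 3722 CPM in poked PLX3397 libraries. The poked libraries lay far below the uninjured ones, with a log2 fold change of -2.18 ± 0.22 (edgeR adjusted p = 6e-06), and DMSO libraries were low too, at 4736, 4591 and 4054 CPM. rlbp1a, which carries retinoids for the visual cycle, fell from 3422, 5363 and 3717 CPM to 1146, 1245 and 1265 CPM (log2 -1.77 ± 0.18, edgeR adjusted p = 6.5e-06). The glutamate transporter SLC1A2 (ENSDARG00000102453) fell by 0.81 on the log2 scale. GFAP, the glial filament protein, rose from 329, 521 and 357 CPM to 471, 705 and 624 CPM (log2 0.58 ± 0.20, adjusted p = 0.031) with overlapping groups, a call that is lost without uninjured library 1 (0.45) or 3 (0.51) or poked PLX3397 library 2 (0.45) or 3 (0.55), or in a fit of these 2 groups alone (0.57). FABP7 (ENSDARG00000007697) rose by 0.88 on the log2 scale and the adhesion molecule CDH2 rose from 375, 524 and 406 CPM to 1420, 2429 and 1700 CPM (log2 2.09 ± 0.20, edgeR adjusted p = 5e-06).

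**Figure D5:**
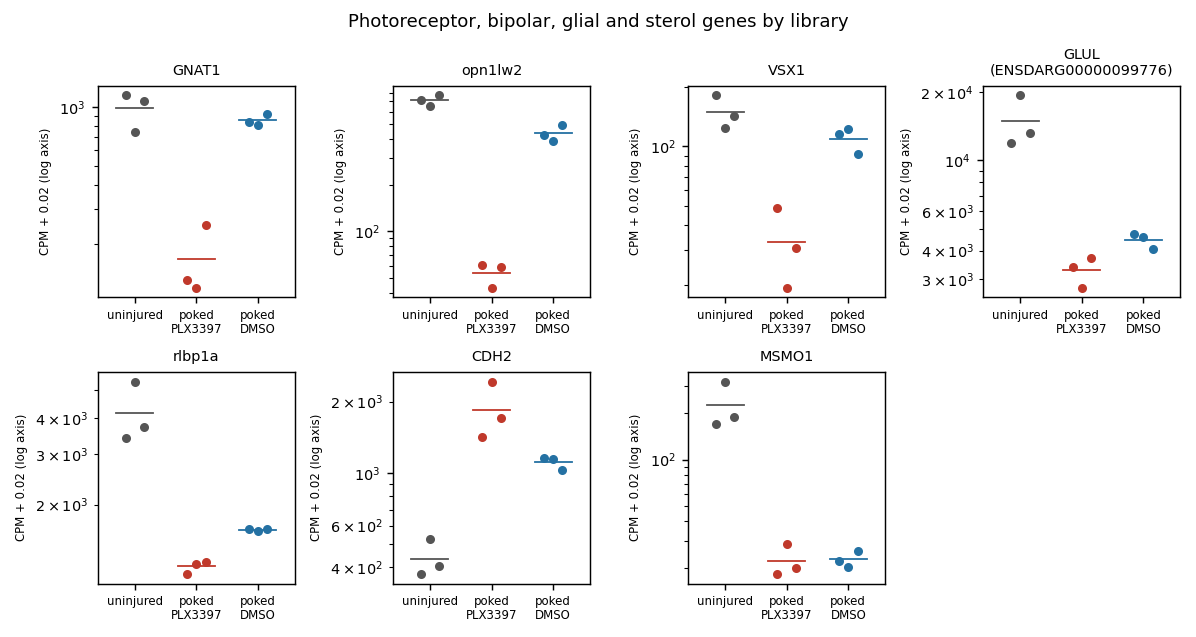
CPM of 7 genes in each library (points, log axis with 0.02 added) of uninjured, poked PLX3397 and poked DMSO retinas; bars are group means. GNAT1, opn1lw2 and VSX1 are lowest with PLX3397, GLUL, rlbp1a and MSMO1 are low in both poked groups, and CDH2 is high in poked PLX3397 retinas.

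Genes of cholesterol synthesis fell, as 19 of 30 were lower (63.3% against the background of 19.9%) and 3 higher (10.0% against 23.0%). The list median was -1.20. MSMO1, a sterol oxidase, read 169, 318 and 188 CPM and 18.3, 28.4 and 20 CPM, with no overlap (log2 -3.34 ± 0.25, edgeR adjusted p = 7.4e-07). SQLE (ENSDARG00000079946), the squalene epoxidase, fell from 82.9, 175 and 91.1 CPM to 10.5, 17 and 10.3 CPM (log2 -3.21 ± 0.37, edgeR adjusted p = 1.9e-05) and the synthase HMGCS1 from 211, 499 and 247 CPM to 43.1, 78.5 and 43.8 CPM (log2 -2.53 ± 0.33, adjusted p = 4.5e-05). The regulators SREBF1 and SCAP rose by 0.81 and 1.13, and GGPS1, which diverts the pathway to prenyl groups, by 1.44. srebf2, the master regulator of the pathway, was not called against uninjured retinas (log2 -0.38 ± 0.19), though it was called lower without uninjured library 1 (-0.53) or poked PLX3397 library 2 (-0.55), and it was higher than with DMSO (log2 1.75 ± 0.20, adjusted p = 3.9e-05). Against DMSO, 9 of the 30 were higher (30.0% against the background of 16.5% in that test) and 0 lower (background 17.7%). At an unadjusted p under 0.05 1 was lower, and 0 by DESeq2 and limma-voom. The cholesterol exporter ABCA1 rose (log2 1.56 ± 0.18, edgeR adjusted p = 1.8e-05). Glycolysis and lactate genes counted 17 lower (43.6% against the background of 19.9%) and 3 higher (7.69% against 23.0%) of 39. The glucose transporter SLC2A1 (ENSDARG00000001437) fell from 1405, 2302 and 1553 CPM to 271, 332 and 292 CPM (log2 -2.56 ± 0.18, edgeR adjusted p = 4.8e-07). Hexokinase HK2 rose from 2.69, 4.32 and 3.88 CPM to 21, 51.3 and 33.3 CPM (log2 3.27 ± 0.30, edgeR adjusted p = 3.1e-06).

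Myelin genes belong to cells that reach the zebrafish retina along the optic nerve. They fell in 10 of 14 cases (71.4% against the background of 19.9%) and rose in 1 (7.14% against 23.0%). mbpa, a myelin basic protein gene, read 12.3, 36.1 and 15.2 CPM and 1.24, 2.01 and 2.4 CPM (log2 -3.49 ± 0.50, edgeR adjusted p = 0.0001), and cldnk, a claudin of myelin, read 7.6, 16.1 and 12.4 CPM and 0.622, 1.03 and 0.536 CPM (log2 -4.04 ± 0.48, adjusted p = 2.3e-05). DMSO libraries read 4.87, 5.1 and 14.8 CPM of cldnk and lay above PLX3397. Uninjured library 2 had the most RNA of both genes in its group. Matrix genes rose in 22 of 52 (42.3% against the background of 23.0%) and fell in 3 (5.77% against 19.9%). The glial matrix protein SPARC fell from 1133, 1873 and 1223 CPM to 283, 363 and 360 CPM (log2 -2.07 ± 0.19, edgeR adjusted p = 3.1e-06). In the vascular list 23 of 29 were not called, 5 were higher (17.2% against the background of 23.0%) and 1 was lower (3.45% against 19.9%). The VEGF receptor KDR rose from 158, 306 and 189 CPM to 646, 988 and 752 CPM (log2 1.87 ± 0.23, edgeR adjusted p = 3.2e-05).

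Clock genes were called lower more often than the background. Of 32, 8 were higher, a share near the background of 23.0%, and 18 were lower (56.2% against 19.9%). The list median was -0.55. The activators CLOCK (ENSDARG00000011703) and bmal2 rose from 8.57, 5.81 and 7.74 CPM to 36.1, 34.3 and 28 CPM and from 2.55, 1.96 and 2.8 CPM to 14, 17.4 and 12.5 CPM (log2 2.16 ± 0.21 and 2.59 ± 0.19). The repressors NR1D1 and ciarta fell from 455, 847 and 510 CPM to 113, 143 and 113 CPM and from 114, 146 and 103 CPM to 25.9, 33.3 and 37.7 CPM (log2 -2.29 ± 0.21 and -1.90 ± 0.16). The groups did not overlap in any of the 4 genes. The hour of the day at which fish were taken is not in the labels, and its part in these values was not tested.

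Among the called genes with the most reads, those that fell were led by heat-shock and mitochondrial transcripts. hsp70l, a heat-inducible Hsp70, read 25789, 24173 and 24298 CPM in uninjured and 8969, 4465 and 9198 CPM in poked PLX3397 libraries (log2 -1.71 ± 0.39, edgeR adjusted p = 0.0033), and hsp70.1 fell by 1.42 on the log2 scale. These Hsp70 genes are near-identical copies whose reads may be shared. MT-CO1, a mitochondrially encoded subunit of cytochrome c oxidase, read 18130, 30207 and 19304 CPM and 9327, 10582 and 8193 CPM (log2 -1.27 ± 0.28, edgeR adjusted p = 0.0024), and MT-CYB fell by 1.66 on the log2 scale. MT-CO1 read 16366, 15729 and 28132 CPM in DMSO libraries, all above PLX3397. Those that rose include the nuclear noncoding RNA malat1, from 3680, 3445 and 3741 CPM to 7471, 10128 and 8505 CPM (log2 1.26 ± 0.17, edgeR adjusted p = 5.9e-05), against 4269, 4178 and 4150 CPM with DMSO.

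The largest folds belong to genes that are nearly silent in 1 group. cart4, a neuropeptide gene, had 0 counts in the uninjured libraries and read 10.9 ± 1.79 CPM (SD, n = 3) in the poked PLX3397 ones, at least 473-fold higher than 3 counts over the uninjured group, with 10.7, 12.2 and 20.1 CPM in DMSO libraries. The Wnt inhibitor dkk1a went from 0.136, 0 and 0 CPM to 29.8, 60.2 and 33.4 CPM (log2 9.96 ± 0.63, edgeR adjusted p = 1.8e-07). The homeobox gene six4b, the Sox factor SOX1 (ENSDARG00000008131) and the integrin itga2.3 had 0 counts in uninjured libraries and were at least 93.5-, 125- and 133-fold higher. In all, 161 called genes had 0 counts in every uninjured library. In the other direction, 75 genes called lower had 0 counts in every poked PLX3397 library, among them the olfactory receptor genes olfcd2 and or42b1 and the kinase genes pimr27 and pimr138. olfcd2 read 4.61, 0.454 and 2.58 CPM in uninjured libraries, at least 126-fold more than 3 counts over the poked group. In 61 of these 75 genes, uninjured library 2 was the lowest of its group, and their summed CPM in uninjured libraries 1, 2 and 3 was 162, 32.8 and 160.0. Among the 10670 genes with a mean of at least 10 CPM over the 6 libraries, 29.2% were called higher and 27.9% lower.

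Genes that set poked PLX3397 retinas furthest from poked DMSO retinas, among those also called against uninjured ones, repeat some names above. Furthest above DMSO were tfa, grna.2, acp5b, GSN (ENSDARG00000045262), SPON2 and si:ch73-70l21.6. grna.2, a second granulin gene, read 3.72, 1.3 and 5.09 CPM in poked PLX3397 libraries, 0.194, 0 and 0.499 CPM in DMSO libraries and 0 counts in uninjured ones, at least 142-fold higher than 3 counts over the uninjured group. SPON2, a secreted matrix protein gene, read 0.977, 0 and 1.06 CPM in uninjured, 13.5, 17.5 and 10.5 CPM in poked PLX3397 and 0.194, 0.185 and 1.26 CPM in DMSO libraries, with the PLX3397 libraries far above both other groups. The call of grna.2 against DMSO ended without poked PLX3397 library 3 (3.43). Furthest below DMSO were ccl34b.1, CDC20, NUSAP1, PIF1, rassf7b and si:dkey-88j15.3. PIF1, a DNA helicase, read 0.732, 0 and 0.326 CPM in uninjured, 0, 0 and 0.0397 CPM in poked PLX3397 and 5.38, 3.25 and 7.08 CPM in DMSO libraries, and only 2 reads over the 3 PLX3397 libraries. Its call against uninjured retinas ended by limma-voom and without uninjured library 1 (a fitted log2 fold change of -3.40).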

How the data were processed

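RNA of zebrafish retinas was sequenced, and the authors deposited a table of expected counts per gene, which are RSEM estimates given as whole numbers. Per the submitters' processing notes, reads were handled with STAR 2.7.8a, RSEM 1.3.3, FastQC 0.11.8 and cutadapt 4.8 on GRCz11. The annotation release is not given in the sources used here. The table holds 9 columns that match no sample by name, and these were not used. Reporter transgenes were left out of the fits.

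The 12 libraries of the needle-poke experiment, 3 per group, were fitted together in edgeR 4.0.16 (R 4.3.3) with TMM scaling, filterByExpr by group and the robust quasi-likelihood F test, 1 mean per group. The 21334 genes kept of 25975 with any count held 99.98% of the counts. A gene was called at a Benjamini-Hochberg adjusted p under 0.05 over all genes tested, and every adjusted p in the text comes from this fit. Standard errors are the log2 fold change divided by the root of F. CPM use TMM effective library sizes. A gene with 0 counts in a group was compared with 3 counts over that group, and its bound covers counting error only. Counts were also simulated at the same depths, with PLX3397 and uninjured means set equal except for 200 changed genes. Of these, 5.97% of genes changed 1.5-fold, 43.3% of those changed 2-fold and 74.2% of those changed 4-fold were called, with 3 false calls. Far more genes, 9149, were called in the data, so these rates do not give the recovery in this contrast.

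Alternatives were DESeq2 1.42.0, limma-voom (limma 3.58.1), other scalings and filters, a fit of the 2 groups alone, a replicate block and leaving out libraries. Named genes are the 10 largest rises and falls among called genes of at least 1 CPM, the 10 called genes with the most reads in each direction, the marked and most changed members of 43 gene lists, and up to 6 genes each way that differ most from poked DMSO. JAK2, dll4, jag1b, jag2a, her12, her2 and DPYSL3, outside that rule, were named after their values were seen. The members and lists were chosen with earlier results of these data known. Genes in the deposited table carry Ensembl identifiers, and their symbols come from a separate list of gene names. Within the uninjured, poked PLX3397 and poked DMSO groups, no 2 libraries agreed within sampling noise. Some pairs were much closer than others by chi-square per degree of freedom. Poked DMSO libraries 1 and 2 gave 12.5, against 217 and 157 for library 3 with each of them. Uninjured libraries 1 and 3 gave 15.6, against 130 and 88.1 for library 2 with each of them. The tests counted every library as a separate replicate, also in these close pairs.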

Additional observations from a re-analysis of the deposited data

Results flagged for a closer look

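Reads of an egfp reporter appeared in data outside the fits. The lowest value over the 9 uninjured, poked PLX3397 and poked DMSO libraries was 287 CPM, far above what a count of 0 allows. The labels name no reporter line, and the source of these reads was not tested.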

How the results depend on the processing

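The number of genes called between poked PLX3397 and uninjured retinas was 9149 and lay between 7419 (a fit of these 2 groups alone) and 10302 (without the 4 libraries that stand apart), with 10012 by DESeq2 and 9025 by limma-voom, and from 7782 to 8841 when each library was left out. The counts for PLX3397 against DMSO ran from 5865 to 6821 and those for DMSO against uninjured from 5541 to 6556 when libraries were left out. The replicate block gave 8830, 6921 and 6388 calls. Replicate numbers do not pair the samples by the labels, and deviations of same-numbered libraries correlated at 0.139, 0.162 and 0.0169. Of 43 list medians, 39 to 42 kept their sign when a library was left out. Signs turned for 3 genes that were not called. With each library left out in turn, the log2 fold change of csf1ra ran from -0.39 to 0.45, that of CCNB1 from -0.26 to 0.059 and that of il1b from -0.58 to 0.56. Without the 4 libraries they were 0.39, 0.039 and -0.51, and il1b was -0.12 by limma-voom. By limma-voom c1qa (5.53), il11a (7.02), CDC20 (-0.62), NUSAP1 (-0.86) and PIF1 (-2.75) were not called, at sizes near those of the edgeR fit for il11a, CDC20 and NUSAP1. The cause was not tested. Genes under about 1 CPM rest on few reads. Changes of 1.5-fold were often missed in simulated data, in which only 200 genes were changed, so the rate missed in this contrast is not known.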
